A study of Mus musculus with 23 samples.

Results

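Formerly obese mice were compared with mice that had never been obese, by RNA-seq of the colonic epithelium. The members of this comparison were taken by diet label: 9 formerly obese samples (HF-LF) and 8 control samples (LF), 17 of the 23 samples in the series. All mice were male C57BL/6 animals (C57BL/6J in the study's methods) that were 6 weeks old when the lard-based diets began and were followed for 43 weeks, and the labels give no allele or drug. LF mice ate a diet with 10% fat for all 43 weeks, whereas HF-LF mice ate a diet with 60% fat for 15 weeks and then the 10% fat diet for 28 weeks. The remaining 6 samples, from mice that ate the 60% fat diet for 43 weeks (HF), were used only to place the values of the formerly obese mice. Each sample name carries batch 1 (4 LF, 4 HF-LF and 3 HF samples) or batch 2 (4 LF, 5 HF-LF and 3 HF samples), and the sources do not say what a batch stands for. Since the methods name 5 mice for each diet and every diet has more samples than that, some samples may share a mouse, and p-values measure only the spread between these samples. Body weights were not used here, so "formerly obese" rests on the diet history and not on a measurement made here.

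The colonic epithelium is a single layer of absorptive, mucus-secreting goblet, hormone-secreting and tuft cells, which stem cells at the crypt base replace continuously. A high-fat diet is known to change the lipids that reach these cells and the genes for fatty acid handling. An effect that outlasts the diet and is kept within these cells would have to be carried through many rounds of cell replacement. Primary response genes, such as those for the transcription factors of the Fos, Jun, Egr and Klf families, are transcribed soon after a signal reaches the cell without needing newly made protein, and their transcripts are short-lived.

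The libraries of the 17 samples held 29189922 to 46900661 counts, and 3 counts corresponded to 0.0640 to 0.103 CPM, the counts of a gene scaled to a library size of 1e+06. All 17 samples expressed epithelial genes, with 4714 to 7356 CPM of the keratin Krt8 and 834 to 1068 CPM of the villus protein gene Vil1. Genes of other cells were present at low levels, with 7.83 to 19.8 CPM of the leukocyte gene Ptprc, 0.207 to 1.46 CPM of the T cell gene Cd3e and 0.0561 to 5.36 CPM of the smooth muscle gene Acta2. The summed CPM of 6 contractile genes (Acta2, Myh11, Des, Tagln, Actg2 and Cnn1) stood apart in batch 1: it was 1.18 to 11.4 in the LF samples but 24.6, 50.5, 2.54 and 19.7 in HF-LF replicates 1 to 4. In batch 2 it was 5.84 to 30.4 in LF and 1.82 to 15.1 in HF-LF. In such bulk samples, fewer cells of a type and less RNA per cell cannot be told apart.

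After 28 weeks on the low-fat diet, no gene passed the test between HF-LF and LF mice. A gene was called at an adjusted p below 0.05 (Benjamini-Hochberg) with a fold change above 1.2, and edgeR's quasi-likelihood test with batch as a covariate called 0 of 14725 genes (0%). The smallest adjusted p was 0.0995. At an unadjusted p below 0.05, 263 genes were higher (1.79%) and 333 lower (2.26%) in HF-LF, 596 in all, where 5% of the genes tested would be 736. On the same samples, DESeq2 called 6 genes (Cebpb, Jund, Klf2, Acta1, Scand1 and Snora7a) and limma voom with sample weights called 3 (Cebpb, Jund and Klf2), and every one was lower in HF-LF. Within batch 1, edgeR called 0 of 14428 genes, with 764 at an unadjusted p below 0.05, and DESeq2 called 4. Within batch 2, edgeR called 1 of 14377 genes (Scand1), with 650 at an unadjusted p below 0.05, and DESeq2 called 15, 11 lower and 4 higher. For comparison, the HF mice differed from LF mice at 2621 genes, 1383 higher (9.39%) and 1238 lower (8.41%), and the HF-LF mice differed from the HF mice at 1501 genes (10.2%). These 3 comparisons share samples and are therefore not independent of each other.

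The 95% interval of the HF-LF to LF ratio lay within 1.2-fold either way for 8250 genes (56.03%), within 1.5-fold for 12407 genes (84.3%) and within 2-fold for 14107 genes (95.8%). The middle 95% of the fitted log2 changes ran from −0.36 to 0.31 for HF-LF minus LF and from −0.70 to 0.52 for HF minus LF. A change of 1.2-fold or more was fitted for 1146 genes (7.78%) in the first comparison and for 4615 genes (31.3%) in the second. Small differences at many genes would not have been detectable at this sample size.

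The question of residual expression and of overshoot was put to the genes that HF mice had shifted. Of the 2621 genes called between HF and LF, 0 were also called between HF-LF and LF by edgeR, in either direction. At an unadjusted p below 0.05, 174 of them differed between HF-LF and LF in the direction of the HF change (123 lower and 51 higher) and 2 in the opposite direction. Both comparisons use the same LF samples, so an LF level that lies high or low by chance moves both the same way, and these counts were not read as residual expression. The 2 genes on the overshoot side were Arhgap20, which encodes a GTPase-activating protein, and Mier3, which encodes a transcriptional repressor. The log2 change of Arhgap20 was 0.35 (SE 0.15) for HF-LF minus LF, not called, and −0.48 for HF minus LF. Its level was 21.995 to 40.8 CPM in LF, 32.0 to 68.9 CPM in HF-LF and 17.02 to 29.0 CPM in HF, so the LF and HF-LF ranges overlapped. The corresponding changes of Mier3 were 0.18 (SE 0.078), not called, and −0.27.

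To read the HF-shifted genes without shared samples, they were chosen in 1 batch and read in the other. Whether the batches share mice is not stated, so the choosing and the reading samples may not be independent. Genes called between HF and LF in batch 2 (1107 of 14377, 7.7%) kept the HF direction in the HF-LF mice of batch 1. Of 446 genes that were higher in HF, 339 (76.0%) were above LF in HF-LF, with a median log2 change of 0.08, against 0.33 for HF minus LF in that same batch. Of 658 genes that were lower in HF, 527 (80.1%) were below LF in HF-LF, with a median of −0.13, against −0.34 for HF minus LF. Over all genes tested in batch 1 the median change of HF-LF was 0.00. The direction of both medians held without any 1 sample, but their size did not. For the genes higher in HF, 252 of 446 were above LF without LF replicate 3 (median 0.022), the median was 0.055 without LF replicate 2 and 0.042 without HF-LF replicate 1, and it was 0.143 without LF replicate 4 and 0.136 without HF-LF replicate 2. For the genes lower in HF, the median was −0.074 without HF-LF replicate 1 and −0.212 without HF-LF replicate 2.

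The reverse reading had medians nearer to 0. In batch 1 the HF to LF comparison called only 1 gene (0.00693%), so the 500 genes of smallest p were taken, 286 higher and 214 lower in HF. In the HF-LF mice of batch 2, 99 of the 286 (34.6%) were above LF, with a median of −0.03, and 101 of the 209 lower genes that were tested there (48.3%) were below LF, with a median of 0.01. The HF mice of batch 2 had kept the direction, with medians of 0.28 and −0.29. Single samples turned the direction of these batch 2 medians. Of the 286 genes, 168 were above LF without LF replicate 4 (median 0.017), 148 without HF-LF replicate 1 and 151 without HF-LF replicate 4, and of the 209 genes, 129 were below LF without LF replicate 4, 117 without HF-LF replicate 1 and 118 without HF-LF replicate 3. The difference between batches was not tested for these lists as a whole.

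The mean level of these genes in each sample showed how far the groups overlapped. For the genes lower in HF, the mean log2 level relative to the LF samples of the batch was −0.15 to 0.13 in the batch 1 LF samples, −0.29 to 0.09 in HF-LF and −0.59 to −0.16 in HF. In batch 2 the same measure was −0.13 to 0.11 in LF, −0.10 to 0.11 in HF-LF and −0.43 to −0.26 in HF. All 5 HF-LF samples of batch 2 lay inside the LF range and above the HF range. For the genes higher in HF, the level was −0.14 to 0.16 in LF, −0.05 to 0.22 in HF-LF and 0.17 to 0.48 in HF in batch 1, and −0.05 to 0.12, −0.23 to 0.16 and 0.21 to 0.42 in batch 2.

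**Figure D1:**
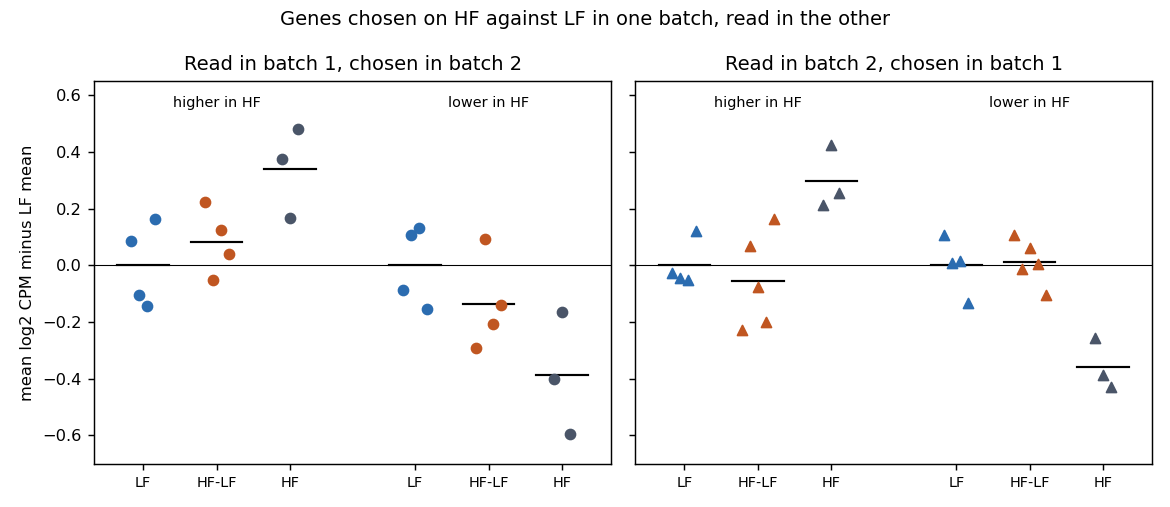
Mean log2 CPM minus the LF mean of the batch, per sample, for genes higher or lower in HF chosen in the other batch. The vertical axis is the mean log2 difference and points are samples by diet and batch; for genes lower in HF, the HF-LF samples of batch 1 span −0.29 to 0.09 and those of batch 2 span −0.10 to 0.11, while the HF samples of batch 2 span −0.43 to −0.26.

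The genes of largest change in HF show where the HF-LF mice lay. Scd1 (chr19:44394450-44407709, minus strand, mm10) encodes stearoyl-CoA desaturase, which makes monounsaturated fatty acids. Its level in the LF samples was 40.2, 28.0, 39.6 and 26.7 CPM in batch 1 and 29.6, 29.1, 34.3 and 40.6 CPM in batch 2. In HF-LF it was 48.0, 39.1, 50.5 and 60.5 CPM in batch 1 and 24.9, 26.5, 20.3, 24.96 and 28.6 CPM in batch 2, and in HF it was 7.15 to 18.4 CPM. Every HF-LF sample lay above every HF sample, whereas 3 of 4 HF-LF samples lay above all LF samples in batch 1 and all 5 lay below them in batch 2. Scd1 fell in HF relative to LF (log2 change −1.56, adjusted p = 9.42e-05) and was higher in HF-LF than in HF (log2 change 1.61, adjusted p = 0.000128, edgeR), and the HF-LF minus LF change was 0.04 with a 95% interval of −0.28 to 0.37.

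The genes of largest change were picked by HF minus LF, and HF-LF minus HF uses the same HF samples. An HF level that was extreme by chance moves both, so these calls are given as a description. Among the 8 genes of largest rise in HF, the HF-LF minus HF change was called for 7. Slc7a11, which encodes the cystine-glutamate exchanger, had 2.33 to 5.33 CPM in LF, 2.77 to 5.33 CPM in HF-LF and 4.06 to 38.0 CPM in HF, where 1 sample, batch 1 replicate 3, held the highest value and the others reached 7.54 CPM. Its log2 change was 1.45 for HF minus LF and 0.12 (95% interval −0.58 to 0.83) for HF-LF minus LF. HF batch 1 replicate 3 also held the highest HF values of Psat1 (33.4 CPM), Mthfd2 (44.0 CPM) and Slc6a19 (14.9 CPM). The other HF samples reached 10.97, 11.95 and 3.66 CPM of these genes. Cst6, which encodes the protease inhibitor cystatin M, did not rest on 1 sample. It was at 0.730 to 1.21 CPM in LF, 0.452 to 1.55 CPM in HF-LF and 1.90 to 2.74 CPM in HF. The epithelial sodium channel subunit gene Scnn1g had log2 changes of 1.41 for HF minus LF (called) and −0.29 (95% interval −0.998 to 0.41) for HF-LF minus LF. The exception was Slpi, which encodes a secreted leukocyte protease inhibitor, with changes of 1.36 for HF minus LF (called) and 0.73 (SE 0.35, not called) for HF-LF minus LF, and −0.64 for HF-LF minus HF (adjusted p = 0.201). Its HF level too rested on batch 1 replicate 3, at 9.03 CPM against 1.21 to 2.99 CPM in the other HF samples. Among the 8 genes of largest fall in HF, which included Scd1, the HF-LF minus HF change was called for 4 (Scd1, Acta1, Klf2 and Cyr61) and not for Cyp11a1, Nr4a3, Hspa1a and Hspa1b. In HF-LF, 7 of these 8 were below LF, none called, and Scd1 was the exception. Among the 8 genes of largest rise, 1 was below LF (Scnn1g), where 46.7% of all genes were. HF minus LF and HF-LF minus LF use the same LF samples, so these counts were not read as residual expression.

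The 8 genes with the smallest p between HF-LF and LF were all lower in HF-LF, and those of them that had a gene name other than a clone or small RNA name were Cebpb, Jund, Klf2, Scand1, Acta1 and Gdf15. None was called by edgeR. Since they were picked as the smallest of 14725 p-values, their values are given as a description. Klf2, Jund and Cebpb encode transcription factors, Acta1 encodes skeletal alpha-actin, a classical target of serum response factor, Scand1 encodes a small SCAN domain protein, and Gdf15 encodes a secreted stress-induced cytokine of the TGF-beta family.

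Klf2 (chr8:72319062-72321654, plus strand) encodes a Krüppel-like factor that restrains proliferation and inflammation. Its level in LF was 46.3, 55.7, 57.0 and 44.2 CPM in batch 1 and 32.3, 36.8, 32.7 and 33.0 CPM in batch 2. In HF-LF it was 30.3, 38.3, 22.2 and 19.9 CPM in batch 1 and 24.3, 22.3, 16.7, 27.1 and 22.4 CPM in batch 2. Every HF-LF sample was below every LF sample of its batch. Such a separation in both batches was seen for 4 genes below LF (0.0272%), the others being Rhob, Cd101 and the transcript 1700056E22Rik, and for 1 gene above LF (0.00679%). The HF samples held 20.1, 25.8 and 12.003 CPM in batch 1 and 13.5, 15.3 and 10.6 CPM in batch 2, and their ranges overlapped with those of HF-LF in batch 1 only. The log2 change of Klf2 was −0.72 (SE 0.14, 95% interval −0.998 to −0.44, adjusted p = 0.105, edgeR) for HF-LF minus LF. It fell by 1.38 on the log2 scale in HF relative to LF (adjusted p = 4.89e-05) and was higher in HF-LF than in HF by 0.66 (adjusted p = 0.0131), which placed HF-LF between LF and HF.

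Jund (chr8:70697739-70700616, plus strand) encodes an AP-1 subunit. In LF its level was 576, 590.2, 471 and 526 CPM in batch 1 and 493, 428, 438 and 444 CPM in batch 2. In HF-LF it was 413, 480.2, 394 and 292 CPM in batch 1 and 330.0, 359, 355, 325 and 325 CPM in batch 2. The groups overlapped in batch 1 through HF-LF replicate 2 and not in batch 2. Its log2 change was −0.44 (SE 0.081, adjusted p = 0.105, edgeR) for HF-LF minus LF and −0.59 for HF minus LF (adjusted p = 0.00125), and HF-LF minus HF was 0.15 (adjusted p = 0.213). The HF level was 275 to 368 CPM over both batches. In batch 2 alone it was 342, 350 and 275 CPM, and HF-LF replicates 2 and 3 of that batch lay above these values.

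Cebpb (chr2:167688915-167690432, plus strand) encodes a transcription factor of inflammatory and metabolic responses. Its LF level was 14.8, 13.8, 10.0 and 12.5 CPM in batch 1 and 9.37, 8.27, 9.47 and 9.39 CPM in batch 2. Its HF-LF level was 9.53, 10.1, 8.62 and 7.55 CPM in batch 1 and 5.73, 7.63, 6.98, 6.79 and 6.26 CPM in batch 2, again with an overlap at HF-LF replicate 2 of batch 1 alone. The log2 change was −0.48 (SE 0.085, adjusted p = 0.0995, edgeR) for HF-LF minus LF and −0.34 for HF minus LF (adjusted p = 0.0140), and the difference between HF-LF and HF was −0.15 (adjusted p = 0.251). Calls for these 3 genes depended on the samples and the tool: edgeR called Cebpb, Jund and Klf2 without HF-LF batch 1 replicate 2, called Cebpb (adjusted p = 0.0248) without LF batch 1 replicate 3, and called none with all samples in the unblocked fit. With the replicate number as a block, edgeR called Klf2 on all samples (log2 change −0.76, adjusted p = 0.0329), whereas without a block DESeq2 called Cebpb (adjusted p = 0.000741), Jund (0.00162) and Klf2 (0.00162) on all samples.

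Acta1 (chr8:123891758-123894775, minus strand) was at 21.9, 26.3, 34.6 and 22.4 CPM in LF batch 1 and 54.2, 48.5, 29.3 and 36.6 CPM in LF batch 2. In HF-LF it was at 15.5, 22.5, 14.5 and 15.7 CPM in batch 1 and 34.6, 32.5, 27.6, 31.7 and 27.6 CPM in batch 2, so the groups overlapped in each batch, and in HF it was at 8.63 to 18.0 CPM. Its log2 change was −0.53 (SE 0.12, adjusted p = 0.285, edgeR) for HF-LF minus LF. It fell by 1.47 in HF relative to LF (adjusted p = 1.3e-06) and was 0.94 higher in HF-LF than in HF (adjusted p = 0.000666). Of the other skeletal muscle markers, Mylpf had a median of 0.846 CPM and was detected in all 23 samples, and the remaining 8 were too low to be tested, with at most 0.264 CPM of creatine kinase (Ckm), at most 0.0264 CPM of the myosin gene Myh4 and no count of Pvalb.

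The last pair differed in how far the batches matched. Gdf15 (chr8:70629394-70631635, minus strand) was at 6.65, 8.37, 7.70 and 9.19 CPM in LF batch 1 and 9.04, 9.50, 6.98 and 5.45 CPM in LF batch 2. The HF-LF samples held 5.90, 7.68, 4.57 and 3.92 CPM in batch 1 and 5.46, 5.50, 5.32, 3.93 and 4.47 CPM in batch 2, so the groups overlapped in each batch. Its log2 change was −0.54 in batch 1, −0.65 in batch 2 and, over both, −0.59 (SE 0.14, adjusted p = 0.49303, edgeR), and it fell by 0.83 in HF relative to LF. Scand1 (chr2:156311846-156312704, minus strand) was at 27.0, 22.2, 24.1 and 26.2 CPM in LF and 14.9, 15.8, 15.9, 13.8 and 15.6 CPM in HF-LF in batch 2, with no overlap. It was the 1 gene called within batch 2 (0.00696%), where its log2 change was −0.71 (adjusted p = 0.0152, edgeR). This call was lost with a replicate block (smallest adjusted p = 0.143) and without LF replicate 1, 3 or 4 or HF-LF replicate 1 or 5, where the smallest adjusted p was 0.0525 to 0.102. In batch 1 it was at 26.1 to 36.7 CPM in LF and 22.1 to 32.5 CPM in HF-LF, a change of −0.20, and the difference between the batches had an unadjusted p of 0.00765 and was not called.

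**Figure D2:**
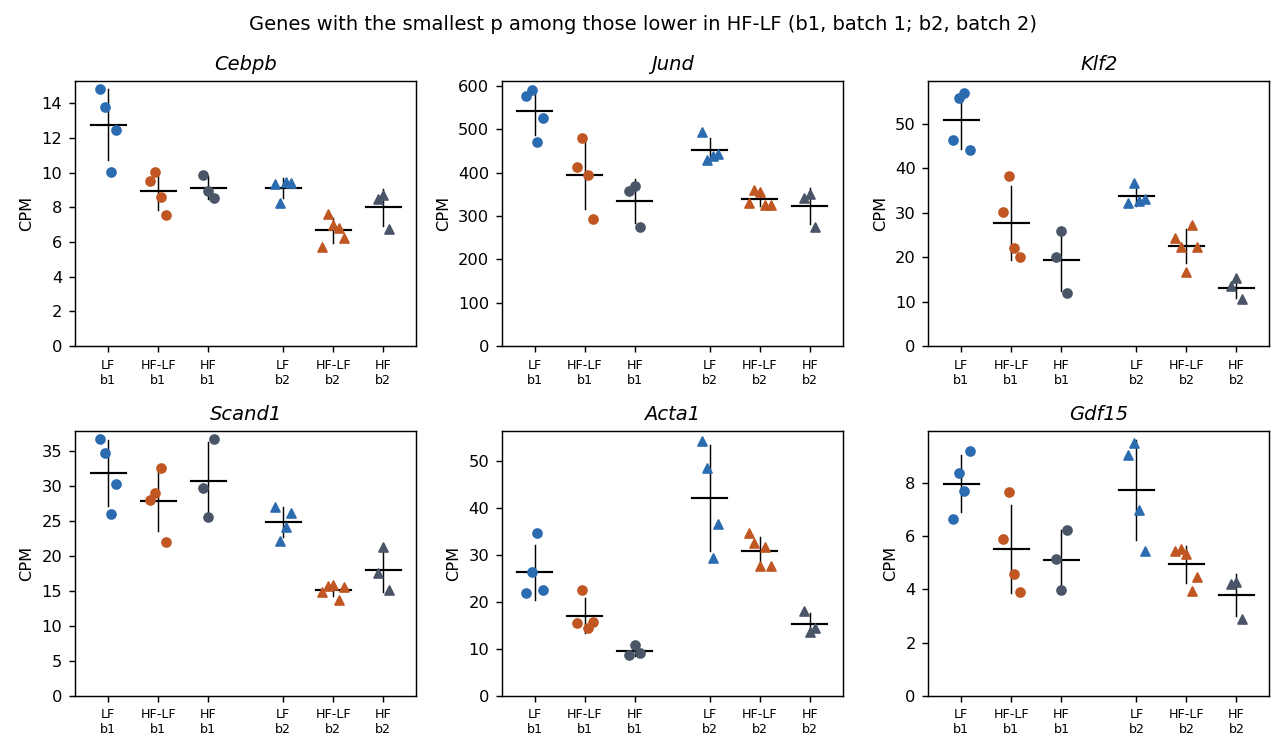
CPM of Klf2, Jund, Cebpb, Acta1, Scand1 and Gdf15 in every sample, by diet and batch. The vertical axes are CPM on a linear scale, points are samples and bars are mean ± SD; Klf2 is the gene whose 9 HF-LF samples all lie below the LF samples of their batch, for example 16.7 to 27.1 CPM against 32.3 to 36.8 CPM in batch 2.

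Serum response factor is a classical activator of primary response genes and of actin genes through the CArG box, so some promoters are shown for this motif. Klf2 and Acta1 were taken from the genes of smallest p. Srf and Zfp36 were picked because they are primary response genes whose 1 annotated promoter held a match, so their matches were fixed by the choice. The sequences are the 250 bases before the annotated gene start, from RefSeq on GRCm38.p6 (mm10), 5′ to 3′ on the strand of the gene, and capitals mark matches to the CArG box. They are Klf2 at chr8:72318812-72319061 (plus), Acta1 at chr8:123894776-123895025 (minus), Srf at chr17:46556163-46556412 (minus) and Zfp36 at chr7:28379229-28379478 (minus).
Klf2: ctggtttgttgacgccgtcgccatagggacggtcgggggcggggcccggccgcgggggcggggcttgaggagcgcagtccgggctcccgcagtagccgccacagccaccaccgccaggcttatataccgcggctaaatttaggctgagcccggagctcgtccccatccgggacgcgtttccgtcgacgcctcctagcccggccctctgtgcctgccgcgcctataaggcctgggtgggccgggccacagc
Acta1: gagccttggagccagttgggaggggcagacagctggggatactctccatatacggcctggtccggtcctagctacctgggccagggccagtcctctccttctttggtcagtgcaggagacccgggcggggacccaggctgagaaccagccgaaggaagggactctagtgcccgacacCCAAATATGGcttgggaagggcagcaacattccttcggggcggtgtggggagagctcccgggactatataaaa
Srf: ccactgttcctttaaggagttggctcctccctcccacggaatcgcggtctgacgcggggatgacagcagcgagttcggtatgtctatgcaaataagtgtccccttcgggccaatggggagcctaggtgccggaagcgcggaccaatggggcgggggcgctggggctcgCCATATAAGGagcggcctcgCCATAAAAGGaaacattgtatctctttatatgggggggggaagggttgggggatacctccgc
Zfp36: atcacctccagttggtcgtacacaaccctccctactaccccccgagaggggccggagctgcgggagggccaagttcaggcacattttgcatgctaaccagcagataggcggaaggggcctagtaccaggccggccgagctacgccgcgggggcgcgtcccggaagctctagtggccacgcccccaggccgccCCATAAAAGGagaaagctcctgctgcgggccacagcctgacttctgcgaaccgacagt

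On both strands, the CArG box was found in 6 of the 46 annotated promoters of the primary response genes (13.04%), which belonged to Egr2 (4 alternative promoters), Srf and Zfp36, and in 482 of all 32851 promoters (1.467%). The cyclic AMP response element TGACGTCA was found in 3 of the 46 (1.546% of all promoters) and the AP-1 site TGANTCA in 1 of the 46 (6.749% of all promoters). Among the 13665 promoters of genes tested, like the 46, the shares were 1.207% for the CArG box, 2.576% for TGACGTCA and 4.925% for TGANTCA. The window of Klf2 held no match to any of the 3 motifs, and that of Acta1 held 1 CArG box. A match describes letters in this window and was not read as a bound site.

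The primary response genes as a group were below LF in the HF-LF mice, by less than in the HF mice and mostly in batch 1. Of 40 tested members, 36 were lower and 4 higher in HF-LF, where 46.7% of all genes were below 0, and the median log2 change was −0.20 against 0.01 over all genes. None was called, and 15 were lower and 0 higher at an unadjusted p below 0.05. In HF minus LF, 30 of the 40 were called lower (8.41% of all genes) and 1 higher (9.39%), with a median of −0.56. Of the same genes, HF-LF minus HF was called higher for 22 (4.8% of all genes) and lower for 1 (5.39% of all genes). The list was drawn up with earlier results of these samples known, so its direction is not independent evidence.

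The members differed in the size of the difference. The AP-1 genes other than Jund had HF-LF minus LF changes of −0.27 (Jun), −0.21 (Junb), −0.14 (Fos), −0.31 (Fosb) and 0.02 (Fosl2), against −0.68, −0.64, −0.53, −1.12 and −0.19 for HF minus LF. The zinc finger and orphan receptor genes Egr1, Nr4a1 and Nr4a2 had changes of −0.20 (SE 0.11), −0.23 (SE 0.19) and −0.31 (SE 0.19) in HF-LF and of −0.67, −1.19 and −1.10 in HF. The synaptic plasticity gene Arc and the secreted matrix protein gene Cyr61 had the largest changes after Klf2, −0.59 (SE 0.21) and −0.58 (SE 0.22), neither called. Arc was at 18.7 to 32.3 CPM in LF and 11.96, 23.5, 10.1 and 8.80 CPM in HF-LF in batch 1, and at 31.6 to 56.5 CPM and 26.9 to 44.4 CPM in batch 2. Its HF-LF replicate 2 of batch 1 was the only one of that batch inside the LF range.

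Rhob, which encodes a small GTPase of the actin cytoskeleton, had a small difference in both batches. It was at 342 to 385 CPM in LF and 297 to 335 CPM in HF-LF in batch 1, and at 416 to 467 CPM and 357 to 404 CPM in batch 2, without overlap in either. Its log2 change was −0.23 (SE 0.079, adjusted p = 0.982, edgeR). The kinase gene Plk2 (−0.27) and the early response gene Ier5 (−0.28) were the next members by p, each with an adjusted p of 0.828. Sgk1, a salt-regulating kinase gene, was the member that rose in HF (log2 change 0.67), and its HF-LF minus LF change was −0.20 (SE 0.19, not called).

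Per sample, the mean level of the 40 genes relative to the LF samples of the batch lay below the LF range in 3 of 4 HF-LF samples of batch 1 and in 1 of 5 of batch 2. It was −0.12 to 0.13 in the LF samples of batch 1 and −0.49, −0.10, −0.52 and −0.53 in HF-LF replicates 1 to 4. The HF-LF replicate 2 that lay within the LF range was also the library with the highest contractile sum, 50.5 CPM. Replicates 1, 3 and 4 had sums of 24.6, 2.54 and 19.7 CPM. In batch 2 the level was −0.12 to 0.14 in LF and 0.04, −0.004, 0.05, −0.08 and −0.22 in HF-LF replicates 1 to 5, of which replicate 5 alone lay below the LF range. The HF samples were at −0.94 to −0.48 in batch 1 and −0.73 to −0.18 in batch 2.

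The median change of the list was −0.37 in batch 1 alone, with 36 of 40 members lower, and −0.02 in batch 2 alone, with 23 lower and 17 higher. At an unadjusted p below 0.05, 21 members were lower in batch 1 (2.83% of all genes) and 5 lower (2.43%) and 2 higher (2.09%) in batch 2. The difference between batches itself had an unadjusted p below 0.05 for 12 of the 40 genes, against 7.57% of all genes tested, and was called for 0 of all genes by edgeR and for 2 by DESeq2, neither of them in this list. Plk3 was one of these genes, with −0.63 in batch 1 and 0.01 in batch 2. Klf2 and Jund were of similar size in each batch (−0.88 and −0.58 for Klf2, −0.46 and −0.41 for Jund).

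**Figure D3:**
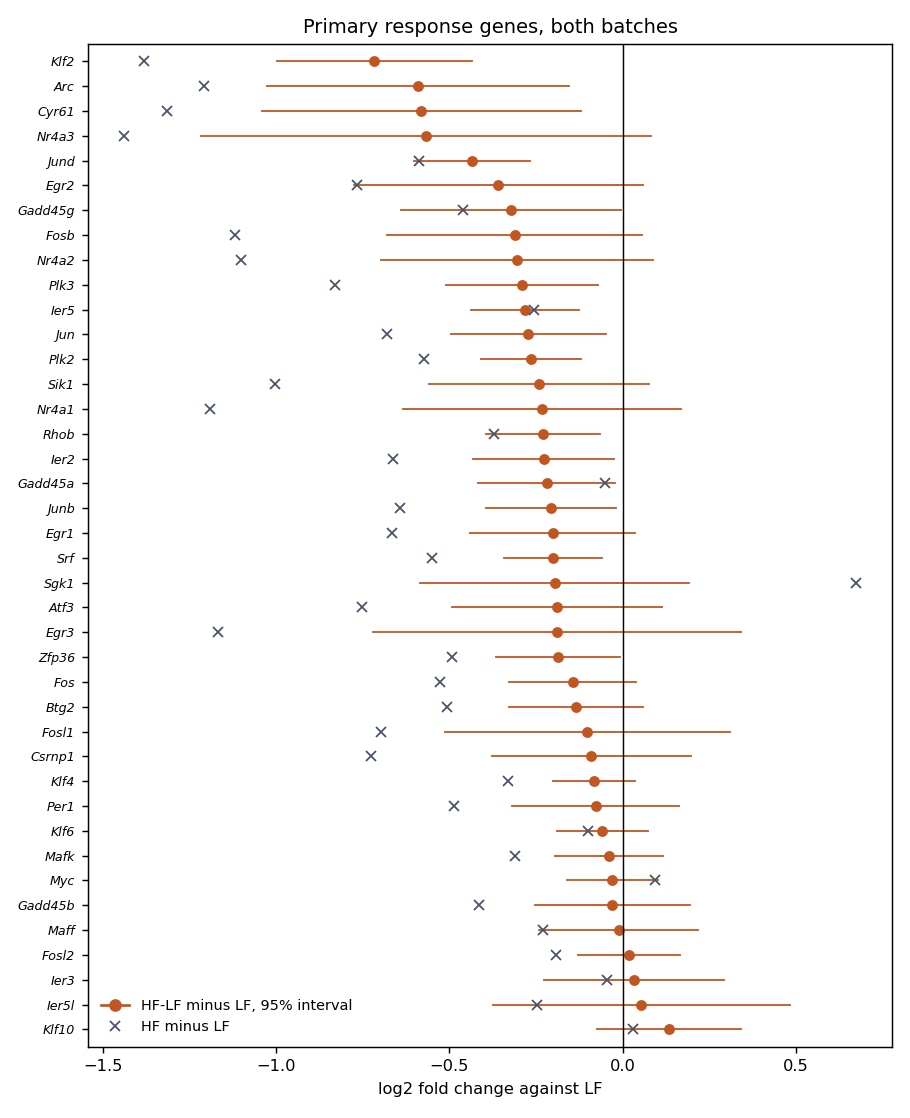
Log2 change of the 40 tested primary response genes. Points with bars are HF-LF minus LF with the 95% interval of the edgeR fit, and crosses are HF minus LF; 36 points lie below 0 with a median of −0.20, and the crosses have a median of −0.56.

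The feedback inhibitors that such signals induce had a smaller median difference. Of 27 tested genes (dual-specificity phosphatases, Sprouty and SOCS proteins and inhibitors of NF-kappaB and SMAD signalling), 20 were lower in HF-LF, with a median of −0.09 (−0.22 in batch 1 and −0.00 in batch 2), and 0 were called. The MAP kinase phosphatase genes Dusp5 and Dusp1 had changes of −0.47 (SE 0.17) and −0.35 (SE 0.14), Spry1 −0.21 (SE 0.089) and the ubiquitin ligase adaptor gene Spsb1 −0.63 (SE 0.18, adjusted p = 0.887, edgeR), and these 4 were those at an unadjusted p below 0.05. In HF, 13 of the 27 were called lower (8.41% of all genes), with a median of −0.32.

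Heat shock chaperones had 18 of 20 tested members below LF in HF-LF, with a median of −0.07 (−0.12 in batch 1 and −0.06 in batch 2), and 0 were called. At an unadjusted p below 0.05, 5 were lower. They were the HSP70 genes Hspa1a (−1.17, SE 0.51) and Hspa1b (−1.10, SE 0.43), their cochaperone genes Dnajb1 (−0.31) and Dnaja1 (−0.32), and the HSP90 gene Hsp90aa1 (−0.32). Hspa1a and Hspa1b are near-identical copies that share reads, so their separate values are uncertain. Hspa1a varied widely within LF, from 14.4 to 129 CPM, and ran from 3.75 to 53.6 CPM in HF-LF. Without LF batch 1 replicate 4, 10 of the 20 chaperone genes were lower and 10 higher, with a median of −0.02, so the count of the list's direction rested on that library, and without HF-LF batch 1 replicate 2 the median was −0.12.

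Cell division genes divided by phase. Of 65 tested genes of DNA replication and S phase, 27 were called higher in HF than in LF (9.39% of all genes) and 0 lower (8.41%). Their HF minus LF median was 0.33. In HF-LF minus HF, 27 of the 65 were called lower (5.39% of all genes) and 0 higher (4.8%). In HF-LF minus LF the median was −0.02, and 0 of the 65 reached an unadjusted p below 0.05. Rrm2, which encodes a subunit of ribonucleotide reductase, had a log2 change of 0.08 (SE 0.19) in HF-LF and 0.70 in HF, and Fen1, the gene of the flap endonuclease, 0.05 (SE 0.12) and 0.61. Among 60 tested genes of G2 and M phase, 56 were higher in HF-LF, with a median of 0.21 that came from batch 1 (0.45) and not from batch 2 (−0.00). Without HF-LF batch 1 replicate 1 the median over both batches was 0.13. None was called, and 2 were higher at an unadjusted p below 0.05 (Hmmr, 0.37, and Smc4, 0.18). In HF, 26 of the 60 were called higher than in LF (9.39% of all genes), with a median of 0.39. The mean level of the G2 and M genes was −0.25 to 0.53 in LF and 0.12 to 0.85 in HF-LF in batch 1, which overlapped through LF replicate 3, and −0.07 to 0.10 in LF and −0.25 to 0.35 in HF-LF in batch 2.

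Oxidative phosphorylation genes encode the mitochondrial respiratory chain. Of 74 tested genes, 44 were called higher in HF than in LF (9.39% of all genes), with a median of 0.29. In HF-LF, 28 were called lower than in HF (5.39% of all genes). The HF-LF minus LF median was 0.04, with 64 of 74 above 0 and 0 called. The direction differed by batch, with 73 of 74 above 0 in batch 1 (median 0.12) and 65 of 74 below 0 in batch 2 (median −0.05). Ndufa4, an electron transport gene, had changes of 0.19 (SE 0.11) in HF-LF and 0.58 in HF.

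Genes of fatty acid oxidation, which a high-fat diet is known to induce, and genes of lipid synthesis showed no called residue. Of 52 tested genes of fatty acid oxidation and PPAR targets, 16 were called higher in HF (9.39% of all genes) and 5 lower (8.41%). In HF-LF, 40 were above LF, with a median of 0.04. The fatty acid binding protein gene Fabp1 had changes of 1.03 in HF and 0.13 (SE 0.30) in HF-LF, the monoglyceride lipase gene Mgll 0.64 and −0.05 (SE 0.13), and the transcription factor gene Creb3l3 1.08 and 0.20 (SE 0.23). Angptl4, which encodes an inhibitor of lipoprotein lipase, had 0.59 and −0.20 (SE 0.18) and was called lower in HF-LF than in HF (−0.79, adjusted p = 0.0140, edgeR). Of 39 genes of fatty acid and sterol synthesis, 5 were called lower in HF (8.41% of all genes) and 0 higher (9.39%). The HF-LF minus LF median was 0.01, with 32 of 39 above 0 in batch 1 and 34 of 39 below 0 in batch 2.

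Other lists had medians within 0.10 of 0 in HF-LF minus LF. They were the interferon-stimulated genes (59 tested, median 0.09), MHC class I and peptide loading (24, 0.03), the clock genes (24, −0.06), xenobiotic and glutathione metabolism (87, 0.05), folding in the endoplasmic reticulum (38, 0.03), ATF4 and amino acid genes (44, 0.02) and ion and nutrient transport (50, 0.00), and 0 of their members were called. MHC class II had a median of −0.14 over 10 genes, 0.06 in batch 1 and −0.44 in batch 2, none called.

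Cell type markers were read in the same samples. Markers of goblet cells (16 tested, 13 higher, median 0.10), absorptive colonocytes (14 tested, 13 higher, 0.11), stem and progenitor cells (17, 0.00), enteroendocrine cells (16, 0.07) and tuft cells (13, 0.06) had 0 members called. Smooth muscle markers had a median of 1.93 in batch 1 and −1.04 in batch 2, fibroblast markers 0.96 and −0.80, and markers of T cells and intraepithelial lymphocytes −0.58 and 0.17. The 13 tested lymphocyte markers summed to 32.6 to 48.3 CPM in LF and 20.3 to 33.8 CPM in HF-LF in batch 1, and to 20.5 to 27.6 CPM and 25.5 to 30.8 CPM in batch 2. The 12 smooth muscle markers summed to 123 to 152 CPM in LF and 114 to 199 CPM in HF-LF in batch 1. The medians of these markers differed between the batches, as that of the primary response genes did. Sample by sample, HF-LF replicates 1 to 4 of batch 1 had contractile sums of 24.6, 50.5, 2.54 and 19.7 CPM. Their primary response levels were −0.49, −0.10, −0.52 and −0.53. Apart from the contractile sum as a covariate, the part of these markers in those results was not tested.

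**Figure D4:**
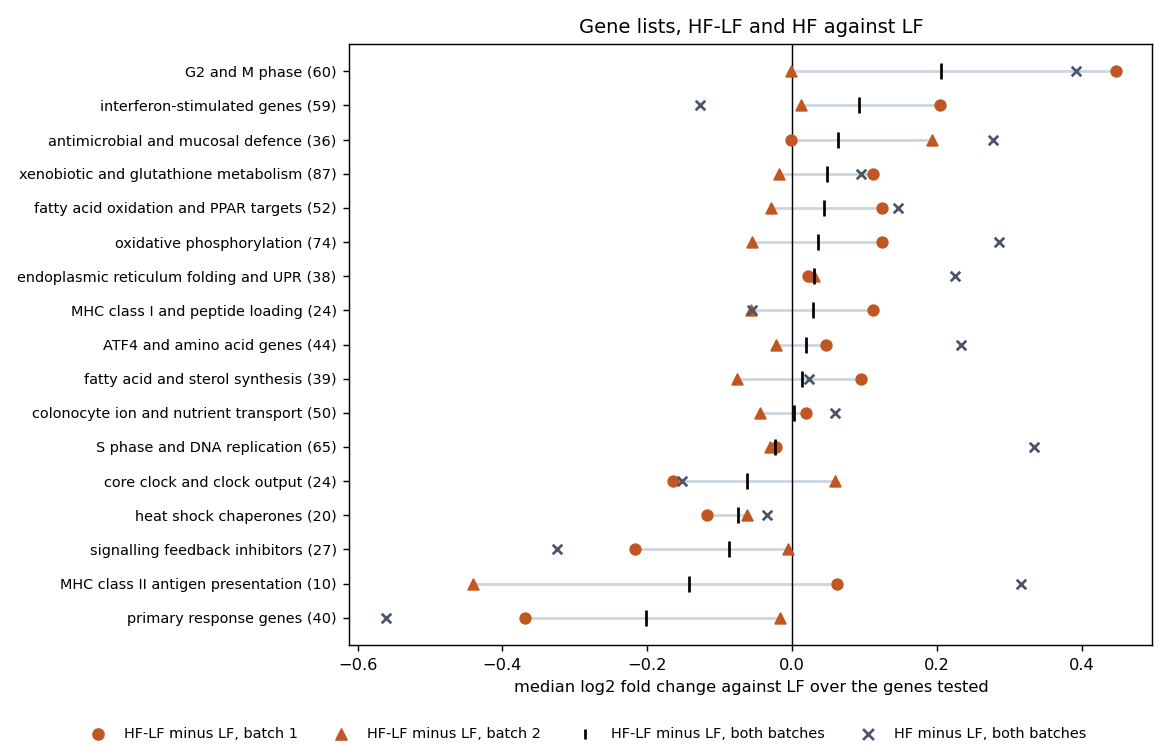
Median log2 change of gene lists with at least 10 tested members, HF-LF minus LF in batch 1, in batch 2 and over both batches, beside HF minus LF over both. The horizontal axis is the median log2 change; for the primary response genes it runs from −0.37 in batch 1 to −0.02 in batch 2, with −0.56 for HF minus LF.

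On the higher side, no gene stood out by p. The antisense transcript Map2k3os (chr11:60920941-60931867) had the smallest p among genes above LF and was the 1 gene whose HF-LF samples lay above all LF samples in each batch. It was at 0.931 to 1.37 CPM in LF and 1.49 to 1.86 CPM in HF-LF in batch 1, and at 1.502 to 1.86 CPM and 2.11 to 2.47 CPM in batch 2. Its log2 change was 0.45 (SE 0.11, adjusted p = 0.548, edgeR), and since strand-aware counting is not stated, its reads cannot be told apart from those of the overlapping gene. Among named genes that were above LF in each batch, Igsf23 (0.34), Apol6 (0.34), Ptpn12 (0.16), Fer1l4 (0.48) and Dhrs9 (0.43) followed, with edgeR adjusted p-values of 0.828 to 0.982.

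Among the defence genes, the largest fitted increases were those of secreted antimicrobial lectins, and none was called. Reg3b, which encodes a lectin of the defence against gut bacteria, was at 10.2, 4.24, 38.3 and 7.70 CPM in LF batch 1 and 44.6, 448, 62.9 and 27.8 CPM in LF batch 2. In HF-LF it was at 154, 21.3, 75.4 and 51.4 CPM in batch 1 and 1474, 38.6, 136, 15.1 and 1397 CPM in batch 2. The values spanned 2 orders of magnitude within a diet, and LF replicate 2 of batch 2 lay above 3 of the 5 HF-LF samples of its batch. The log2 change of Reg3b was 2.18 (SE 0.90, 95% interval 0.31 to 4.05, adjusted p = 0.982, edgeR), and an exact permutation of the labels within batches, two-sided, gave p = 0.0766.

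Reg3g, its close homologue, was at 5.47, 2.43, 12.7 and 4.46 CPM in LF batch 1 and 9.04, 63.5, 14.6 and 9.39 CPM in LF batch 2. In HF-LF it was at 46.1, 7.01, 29.0 and 28.6 CPM in batch 1 and 278, 13.7, 28.1, 4.22 and 193 CPM in batch 2, with the high values in the same samples as for Reg3b. The log2 change was 2.12 (SE 0.73, adjusted p = 0.982, edgeR, not called), and the exact permutation p was 0.0574, 1 of 69 genes computed in this way. The 69 were picked by their values in these same samples, so an adjustment over them would not account for the choice. Pla2g2a, which encodes a secreted antimicrobial phospholipase, was at 0.694 to 1.55 CPM in LF and 1.06 to 2.48 CPM in HF-LF (log2 change 0.59, SE 0.23, not called) and rose in HF (1.18). Of 36 tested defence genes, 24 were higher in HF-LF with a median of 0.06, and 4 were so at an unadjusted p below 0.05 (Reg1, Reg3b, Reg3g and Pla2g2a).

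**Figure D5:**
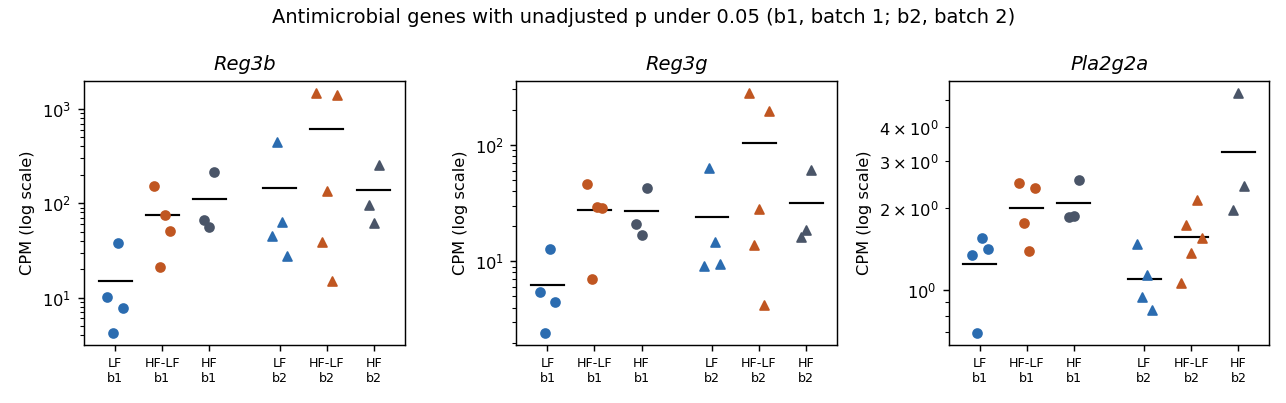
CPM of Reg3b, Reg3g and Pla2g2a in every sample by diet and batch. The vertical axes are logarithmic, points are samples and bars are arithmetic means; Reg3b spans 4.24 to 448 CPM in LF and 15.1 to 1474 CPM in HF-LF, so the diets overlap.

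The genes with the smallest p for a difference between batches were Tmem181c-ps, Efcab4b, Ptprc and Marcks, and none was called by edgeR (smallest adjusted p = 0.347), with 1114 genes at an unadjusted p below 0.05 (7.57%). Ptprc, which encodes the leukocyte antigen CD45, was at 15.1, 19.8, 16.3 and 14.4 CPM in LF and 8.85, 14.6, 9.63 and 10.99 CPM in HF-LF in batch 1. In batch 2 it was at 10.5, 8.68, 7.83 and 9.26 CPM in LF and 10.3, 12.9, 12.1, 11.3 and 11.5 CPM in HF-LF. Of the HF-LF samples, 3 of 4 lay below all LF samples in batch 1 and 4 of 5 lay above them in batch 2 (interaction 0.93 on the log2 scale, SE 0.22). Efcab4b, which encodes a calcium-binding protein, had 74.6 to 87.8 CPM in LF and 45.8 to 71.2 CPM in HF-LF in batch 1, and 44.4 to 59.8 CPM and 54.9 to 78.7 CPM in batch 2 (interaction 0.94, SE 0.20). The pseudogene Tmem181c-ps had an interaction of 0.82 (SE 0.16) and may share reads with its parent gene. Marcks, which encodes a membrane-bound kinase substrate, had −0.42 (SE 0.10).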

How the data were processed

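Colonic epithelium was isolated from the whole colon with EDTA and sequenced as ribosomal RNA-depleted, stranded, paired-end libraries. The authors trimmed reads with cutadapt 1.2.1, aligned them to mm10 with STAR 2.5 and counted them with featureCounts 1.5.0-p1. The deposited values are raw counts per gene for 24917 loci, and a strand setting is not given in the sources used here. Samples were grouped by diet label, with batch from the sample titles. The members and gene lists were chosen with earlier results of these data known.

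Counts were scaled by TMM, genes with low counts were removed (filterByExpr, within batch and diet), and edgeR 4.0.16 (R 4.3.3) fitted all 23 samples with diet and batch. Calls required a Benjamini-Hochberg adjusted p below 0.05 and a fold change above 1.2. Fits within each batch, a batch by diet interaction, limma 3.58.1, DESeq2 1.42.0, RLE scaling, other filters, sample weights, a replicate block, the 17 samples alone and leaving out each sample were the alternatives. Library totals ran from 29189922 to 65320947 counts over the 23 samples, and intervals and floors cover the fit or counting error only. The self-written steps were tested on simulated data. No libraries agreed within sampling noise (chi-square per gene of at least 11.3 between LF samples and 16.1 between HF-LF samples).

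Named genes were, with a mean of at least 1 CPM and a symbol that is not a clone, predicted or small RNA name, the called genes of largest change, filled up to 6 in each direction by smallest unadjusted p, the called residual and overshooting genes, called list members, and the 4 genes of smallest p for the interaction. The genes taken by smallest p in each direction also had to change in the same direction in both batches and in the joint fit. Their matching direction in the batches was thus fixed by the choice. Since no gene was called, members of lists, Arhgap20, Mier3, Rhob, Cd101, Reg3b and Reg3g and the genes of largest HF change were chosen after their values were seen. Permutation tests used log2(CPM + 0.5). Promoter and gene positions are those of RefSeq on GRCm38.p6, and 10 of the 12 genes named by p had a promoter entry.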

Additional observations from a re-analysis of the deposited data

Results flagged for a closer look

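In 9 of 112 group and measure combinations, 1 sample lay far from the others of its diet and batch by Dixon's test at the 95% level, and chance flags about 1 in 20 groups. They were Cebpb in LF batch 2 replicate 2 (8.27 CPM), Klf2 in LF batch 2 replicate 2 (36.8 CPM), Acta1 in HF-LF batch 1 replicate 2 (22.5 CPM), Ptpn12 in HF-LF batch 2 replicate 3 (41.1 CPM), Fer1l4 in LF batch 1 replicate 3 (10.5 CPM) and Dhrs9 in LF batch 2 replicate 1 (8.32 CPM). The total of LF batch 1 replicate 2 was 29189922 counts, the lowest of its group. The mean log2 level of the genes that were higher in HF, chosen in the other batch, was 0.12 in LF batch 2 replicate 4. The primary response level of HF-LF batch 1 replicate 2 was −0.0998, whereas the other HF-LF samples of that batch were between −0.53 and −0.49. That library also held the highest contractile sum of its group. The list median was fitted in 13 alternative ways, which included that sum as a covariate. Of these, 11 stayed within 1 SD of the sample levels from the main value, and those beyond it were batch 1 alone and batch 2 alone. The part of the sum in the level of this 1 library was not tested.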

How the results depend on the processing

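The count of genes called between HF-LF and LF was 0 under RLE and upper-quartile scaling, no filter, no or a 1.5-fold threshold, no robust estimation, the 17 samples alone, no batch term, batch 1 alone and, chosen after seeing the data, the contractile sum as a covariate. It was 6 with DESeq2, 3 with limma voom and sample weights, 4 when samples of the same number in both batches were taken as 1 mouse (limma voom, consensus correlation −0.0999) and 1 in batch 2 alone. Leaving out single samples gave 0 to 3 calls over both batches, 0 to 6 in batch 1 (6 without HF-LF replicate 2) and 0 to 2 in batch 2, where Scand1 was the 1 gene called (0 without LF replicate 1, 3 or 4 or HF-LF replicate 1 or 5, and 2 without LF replicate 2 or HF-LF replicate 4). Within batches DESeq2 called 4 genes in batch 1 and 15 in batch 2, and for the interaction 2. The primary response median was −0.37 in batch 1 alone and −0.016 in batch 2 alone, and that of the feedback inhibitors −0.22 in batch 1 alone. Of 723 alternative values of the 43 named genes, 704 kept direction and side of the threshold, 18 were newly called and 1 reversed, Plk3 in batch 2 alone (0.0092, not called). Leaving out 1 sample of the reading batch moved the batch 1 medians of the genes chosen in batch 2 over 0.02 to 0.14 (higher in HF) and −0.21 to −0.07 (lower in HF), and the reverse reading over −0.08 to 0.02 and −0.02 to 0.03. The causes were not tested.

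Replicate numbers did not pair the samples: of 8 LF and HF-LF pairs of 1 batch, 2 had deviations correlated above 0.1 (−0.35 to 0.29). With the replicate block, 1 gene was called over both batches (Klf2, log2 change −0.76, adjusted p = 0.0329, edgeR), 0 in batch 2, where the call of Scand1 was lost, 0 in batch 1 and 0 for the interaction. The block moved HF minus LF from 2621 to 2864 calls and HF-LF minus HF from 1501 to 1747.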

Other observations

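Small nucleolar and Cajal body RNA genes, a group looked at after its values were seen, were mostly below LF in the HF-LF mice. These RNAs guide modification of ribosomal and spliceosomal RNA. Of 97 tested, 82 were lower (84.5%), where 46.7% of all genes were, with a median log2 change of −0.22, of −0.26 in batch 1 and of −0.15 in batch 2. None was called by edgeR, 21 were lower and 1 higher at an unadjusted p below 0.05, and DESeq2 called 1 (Snora7a, −0.78, adjusted p = 0.0440). The median for HF minus LF was −0.35. Small nucleolar RNAs held 0.162 to 0.272% of the counts in the LF samples of batch 1 and 0.147 to 0.243% in HF-LF. In batch 2 the shares were 0.109 to 0.116% in LF and 0.0968 to 0.118% in HF-LF, so the groups overlapped in each batch.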
